A study of Mus musculus with 15 samples.

Results

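The fatty acid desaturases and elongases described here are 10 genes, Scd1, Scd2, Elovl1, Elovl3, Elovl5, Elovl6, Fads1, Fads2, Fads3 and Hacd2, found by matching the Ensembl identifiers of the count files to mouse gene symbols. All 10 were among 25700 counted identifiers, and all 10 passed the filter on low counts, which left 12279 genes to test. RNA-seq was done on 3T3-L1 cells, an established mouse fibroblast line that turns into fat-storing adipocytes when given dexamethasone, IBMX and insulin. The 15 libraries form 5 groups of 3: wild-type (WT) cells at day 0 and day 6 of differentiation, cells labelled MIGA2-KO, which the study calls depleted of MIGA2, at day 0 and day 6, and cells labelled as overexpressing MIGA2-GFP at day 6. Day 0 is the addition of differentiation medium to cells that had stayed confluent for 48 h, and all day 6 groups had the same sequence of media. MIGA2 is an outer mitochondrial membrane protein that links mitochondria to the endoplasmic reticulum and to lipid droplets. The labels do not say how the MIGA2-KO or MIGA2-GFP cells were made, whether each is 1 clone, or whether replicates were separate cultures, so the p-values below measure only the spread between these libraries.

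These enzymes sit in the membrane of the endoplasmic reticulum and set the length and the number of double bonds of acyl chains. The stearoyl-CoA desaturases Scd1 and Scd2 put the first double bond into saturated chains, giving palmitoleate and oleate, the main monounsaturated acids of adipose triacylglycerol. Elongation runs in a cycle of condensation, reduction, dehydration and a second reduction. The Elovl proteins are the condensing enzymes, each with its own choice of substrates, and Hacd2 is a 3-hydroxyacyl-CoA dehydratase that carries out the dehydration. Fads1 and Fads2 are front-end desaturases that, with Elovl5, build polyunsaturated acids such as arachidonic acid from dietary precursors. Fads3 is their neighbour in the genome and acts on sphingoid bases.

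Total counts per library lay between 10748668 and 26003871. How the MIGA2-KO and MIGA2-GFP cells were made is not stated, so the level of Miga2 mRNA cannot check the labels. Miga2 stood at 15.56, 17.75 and 13.63 CPM (counts scaled to library size with TMM factors) in WT at day 0 and at 17.17, 21.41 and 22.55 in MIGA2-KO at day 0. At day 6 it was at 145.2, 159.5 and 181.8 CPM in WT, at 165.6, 155.4 and 158.5 in MIGA2-GFP, and at 925.7, 74.48 and 70.02 in MIGA2-KO. Miga2 mRNA was therefore no higher in the libraries labelled MIGA2-GFP than in WT, it was no lower in the MIGA2-KO libraries than in WT at day 0 (log2 fold change 0.38 ± 0.71, edgeR adjusted p = 0.708), and in the library labelled MIGA2-KO day 6 replicate 1 it was above every other library. At day 6 the other MIGA2-KO libraries alone were below WT. Miga2 mRNA thus did not follow the labels of MIGA2-KO at day 0, of MIGA2-GFP and of this 1 library. Whether those labels are right cannot be read from it. Group names below are those of the labels. Replicate 1 also stood furthest from the other libraries of its group in WT at day 0 (root-mean-square difference of log2 CPM 0.598), WT at day 6 (0.578) and MIGA2-KO at day 6 (0.553), against 0.227 to 0.476 for all other libraries. Results for the 10 genes whose call changes without these 3 libraries are given both ways. They were picked for their distance from their own groups, so leaving them out narrows the spread and more genes pass. For MIGA2-GFP against WT, 2020 genes were higher and 2318 lower with all libraries, and 3799 and 3826 without them. Between the lines at day 0 the counts went from 1981 and 2178 to 3072 and 3082. A call gained that way is not separate support.

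The cells carried adipocyte markers in step with differentiation. In WT the summed level of 8 adipocyte markers had a range of 32.19 to 49.84 CPM on day 0 and of 30660 to 44740 CPM on day 6. In MIGA2-KO the ranges were 26.08 to 27.57 CPM and 5860 to 9425 CPM, and in MIGA2-GFP 20120 to 21820 CPM. The 8 preadipocyte and fibroblast markers summed to 16200 to 20880, 5317 to 5777, 14280 to 15870, 10890 to 18690 and 5852 to 6162 CPM in the same order. All 8 adipocyte markers were lower in MIGA2-KO than in WT at day 6, with a median log2 fold change of -2.26. Of 7 macrophage markers Ptprc was at 0 in every group, while Lyz2 and Cd14 were present, and the sum lay between 87.31 and 122.7 CPM in WT at day 0 and between 23.42 and 43.12 CPM in all day 6 libraries. Of 7 epithelial and mesothelial markers Epcam and Cdh1 were at 0 in every group, but the sum moved with adipocyte markers. Its range in WT was 4.391 to 6.036 CPM on day 0 and 60.22 to 73.3 CPM on day 6, most of it Msln at 49.91 to 57.12 CPM. It reached 12.8 to 16.0 CPM in MIGA2-KO on day 6 and 29.24 to 33.22 CPM in MIGA2-GFP. The 5 endothelial markers summed to at most 1.745 CPM in any library. In such bulk RNA, fewer cells of a type and less RNA per cell cannot be told apart, and the part of these marker shifts in the results below was not tested.

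Scd1 and Scd2 lie in 1 cluster on chromosome 19 (GRCm38, 44394455 to 44407879 on the reverse strand and 44293674 to 44306864 on the forward strand) together with Scd3 and Scd4. Their coding sequences are 90.4% identical. The 2 stretches of 60 bases below, from the coding sequences in GENCODE vM21 and given 5′ to 3′, show what a read can and cannot tell apart. In the first, at coding bases 523 to 582 of Scd1, the 3 genes do not differ:
Scd1: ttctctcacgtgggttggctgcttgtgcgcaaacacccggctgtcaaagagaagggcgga
Scd2: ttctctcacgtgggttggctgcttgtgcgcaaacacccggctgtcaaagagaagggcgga
Scd3: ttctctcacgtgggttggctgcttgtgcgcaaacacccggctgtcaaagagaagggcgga
In the second, at coding bases 295 to 354 of Scd1, capitals mark bases that differ from Scd1, 10 in Scd2 and 18 in Scd3:
Scd1: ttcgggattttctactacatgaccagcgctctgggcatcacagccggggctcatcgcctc
Scd2: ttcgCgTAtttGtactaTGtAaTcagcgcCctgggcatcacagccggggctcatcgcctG
Scd3: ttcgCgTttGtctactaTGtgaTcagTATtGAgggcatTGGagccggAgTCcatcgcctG
Over whole transcripts the overlap is small. Of all stretches of 100 bases in the annotated transcripts, 2.56% of those of Scd1 and 0.879% of those of Scd2 also occur in another gene of the lists used here, and none of those of the other 8 genes do. With stretches of 50 bases the shares were 4.56% for Scd1, 3.75% for Scd2, 0.152% for Fads2 and 0.127% for Fads3. The sources used here do not say how reads that fit more than 1 gene were counted, so levels of the 3 genes are uncertain to that extent. Scd3 was at most at 51.27 CPM in any library.

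Scd1 showed the widest swing of the desaturases among the 10 genes. It was at 138, 158.5 and 180 CPM in WT at day 0 and at 24380, 21010 and 21680 CPM in WT at day 6. In MIGA2-KO it was at 337.5, 335.6 and 353.5 CPM at day 0 and at 10780, 2345 and 2369 CPM at day 6. In MIGA2-GFP it was at 27280, 26930 and 26880 CPM. Every day 6 library was above every day 0 library, and all 3 MIGA2-KO libraries were below WT at day 6. Scd1 rose 141-fold in WT cells (7.14 ± 0.54 as log2 with its SE, adjusted p = 2.81e-08, edgeR quasi-likelihood test with Benjamini-Hochberg adjustment over all 12279 genes, used throughout) and 15.1-fold in MIGA2-KO cells (3.92 ± 0.47, adjusted p = 7.62e-06). At day 6 it was 4.33-fold lower in MIGA2-KO than in WT (log2 -2.11 ± 0.43, edgeR adjusted p = 0.000762). The library labelled MIGA2-KO day 6 replicate 1 held 4.57 times the mean of the other MIGA2-KO libraries; without it the rise in MIGA2-KO was 2.78 and the difference from WT was -3.24, both past the threshold. MIGA2-GFP did not differ from WT beyond the threshold (0.27 ± 0.41, edgeR adjusted p = 0.63), although its 3 libraries lay above the 3 of WT, and the difference passed without the 3 libraries that stood apart (0.33, adjusted p = 3.02e-05). At day 0 the MIGA2-KO libraries also lay above WT, with a log2 fold change of 1.11 ± 0.42 that just missed the threshold (edgeR adjusted p = 0.0554). That difference passed without those 3 libraries (1.02, edgeR adjusted p = 1.11e-10) and in a fit of only the groups compared (1.11, edgeR adjusted p = 0.00128). It also passed with no filter on low counts (1.11, edgeR adjusted p = 0.0355) and in limma voom (1.08, adjusted p = 5.87e-05).

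Scd2, the form best known from brain, was the more abundant of the pair before differentiation. Its level was 679.1, 904.7 and 964.1 CPM in WT at day 0 and 5521, 4759 and 5047 CPM at day 6. It was 1134, 1147 and 1139 CPM in MIGA2-KO at day 0 and 2461, 1024 and 1033 CPM at day 6. The MIGA2-GFP libraries, at 7896, 7826 and 7843 CPM, were the highest of the series. Scd2 rose 6.02-fold in WT cells (log2 2.59 ± 0.27, edgeR adjusted p = 9.3e-07). In MIGA2-KO the days overlapped and the change did not pass (0.40 ± 0.26, edgeR adjusted p = 0.227); it was -0.15 (adjusted p = 0.382) once the library labelled MIGA2-KO day 6 replicate 1 was left out, whose level was 2.39 times the mean of the other MIGA2-KO libraries. With all 3 libraries that stood apart left out, Scd2 passed as lower at day 6 (-0.12, edgeR adjusted p = 0.0439), the opposite direction. At day 6 Scd2 was 3.39-fold lower in MIGA2-KO than in WT (edgeR adjusted p = 6.38e-05). In MIGA2-GFP it stood 1.54-fold above WT, which missed the threshold (edgeR adjusted p = 0.074) and passed without the 3 libraries that stood apart (log2 0.67, adjusted p = 1.71e-09). That difference also passed with library totals in place of TMM factors (0.80, edgeR adjusted p = 0.0337) and in limma voom (0.68, adjusted p = 1.64e-05). A fit of only the groups compared gave 0.62 (edgeR adjusted p = 0.00281).

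**Figure D1:**
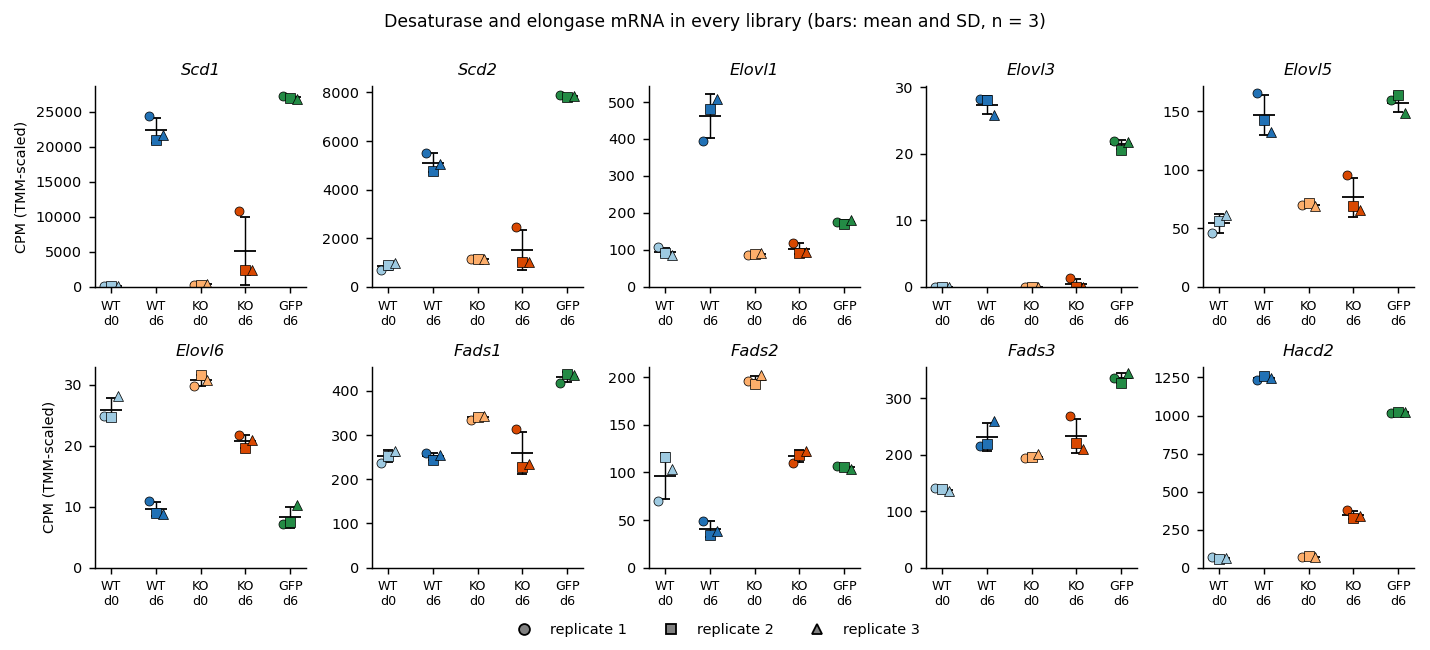
Level of each gene (y axis, CPM on a linear scale from 0) in each of the 15 libraries by group (x axis; KO is MIGA2-KO, GFP is MIGA2-GFP), with symbols for the replicate number and bars for the mean and SD of 3 libraries. Scd1 in MIGA2-KO at day 6 shows 1 library at 10780 CPM and a pair at 2345 and 2369 CPM.

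The balance of Scd1 to Scd2 within a library depends on neither its depth nor its scaling. Counts of Scd1 divided by counts of Scd2 were 0.203, 0.175 and 0.187 in WT at day 0 and 4.42, 4.41 and 4.29 at day 6. They were 0.298, 0.292 and 0.31 in MIGA2-KO at day 0 and 4.38, 2.29 and 2.29 at day 6, and 3.45, 3.44 and 3.43 in MIGA2-GFP. Scd2 counts were thus in excess in all day 0 libraries and Scd1 counts in all day 6 libraries. The shift over time was 4.54 on the log2 scale in WT and 3.25 in MIGA2-KO, each with an exact two-sided permutation p of 0.1, the smallest that 3 against 3 libraries can give (0.15 adjusted over the 6 comparisons). The difference between MIGA2-KO and WT at day 6 was -0.62 (exact permutation p = 0.2) and rested on the spread within MIGA2-KO: replicate 1 was at 4.38, within the WT range, and the other libraries had the lowest balance of any day 6 library. Leaving replicate 1 out gave -0.93.

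In WT cells the elongases Elovl1, Elovl3 and Elovl5 were higher at day 6 than at day 0, and Elovl6 was lower. Windows before the annotated start, from RefSeq (GRCm38.p6), matched by symbol for 6 of the 10 genes: Elovl1, Elovl5, Elovl6, Hacd2, Fads3 and Fads2. Shown are the 250 bases before the start of Elovl1, Elovl5 and Hacd2, which all rose in WT cells and were lower in MIGA2-KO at day 6, and of Fads3, which did not differ between those groups. Letters run 5′ to 3′ on the gene's strand, which is the forward strand for all 4, and capitals mark 6 searched motifs on either strand.
Elovl1 (chr4:118427843-118428092): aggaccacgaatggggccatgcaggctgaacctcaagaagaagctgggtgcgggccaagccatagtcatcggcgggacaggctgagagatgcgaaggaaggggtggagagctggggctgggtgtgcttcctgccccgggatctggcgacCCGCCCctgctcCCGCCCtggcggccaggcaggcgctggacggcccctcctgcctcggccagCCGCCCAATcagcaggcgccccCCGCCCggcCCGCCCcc
Elovl5 (chr9:77917115-77917364): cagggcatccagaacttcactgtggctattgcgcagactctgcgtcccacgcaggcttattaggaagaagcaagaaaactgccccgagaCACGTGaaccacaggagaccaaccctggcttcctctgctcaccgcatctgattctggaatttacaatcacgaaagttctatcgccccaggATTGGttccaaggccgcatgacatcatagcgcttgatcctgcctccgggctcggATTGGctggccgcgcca
Hacd2 (chr16:35022171-35022420): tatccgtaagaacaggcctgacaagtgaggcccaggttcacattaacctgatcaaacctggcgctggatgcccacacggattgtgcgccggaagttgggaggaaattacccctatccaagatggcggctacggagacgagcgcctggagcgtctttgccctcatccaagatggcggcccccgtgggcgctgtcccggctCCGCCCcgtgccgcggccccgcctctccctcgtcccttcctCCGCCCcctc
Fads3 (chr19:10041298-10041547): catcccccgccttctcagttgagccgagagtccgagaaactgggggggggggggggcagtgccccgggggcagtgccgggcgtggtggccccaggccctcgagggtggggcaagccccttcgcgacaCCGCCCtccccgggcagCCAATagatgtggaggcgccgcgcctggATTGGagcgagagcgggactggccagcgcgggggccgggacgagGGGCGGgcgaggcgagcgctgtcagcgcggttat
The GC box (GGGCGG), bound by Sp1, was found in 4 of the 6 genes against 32.7% of all 32851 windows, and the CCAAT box (CCAAT) in 3 against 33.8%. The E-box (CACGTG) was found in Elovl5 alone among the 6, against 6.02% of all windows. The core motif of nuclear receptors (AGGTCA) was in 2 genes against 14.0%. A sterol regulatory element (TCACNCCAC, in 1.05% of all windows) and a C/EBP motif (TTGCNNAA, in 9.56%) had no match in these 6. In Elovl1 a GC box and the CCAAT box overlap. Elovl1 has a second annotated start, counted with the first. Matches of these letters are descriptions of the windows only.

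Elovl1 (chromosome 4, 118428093 to 118432953), which extends saturated and monounsaturated chains to the very long lengths used in ceramides, was at 107.1, 92.79 and 85.71 CPM in WT at day 0 and at 394.3, 481.5 and 508.1 CPM at day 6. In MIGA2-KO it was at 87.15, 88.32 and 92.61 CPM at day 0 and at 119.9, 92.94 and 95.36 CPM at day 6. MIGA2-GFP lay between these, at 175, 171.4 and 179.8 CPM. Elovl1 rose 4.85-fold in WT cells (log2 2.28 ± 0.13, edgeR adjusted p = 9.37e-10), while the MIGA2-KO change did not pass (0.20 ± 0.12, edgeR adjusted p = 0.205). At day 6 it was 4.49-fold lower in MIGA2-KO (edgeR adjusted p = 1.44e-08) and 2.63-fold lower in MIGA2-GFP (edgeR adjusted p = 5.24e-06) than in WT. No library of either group reached the WT range. The 3′ end of Elovl1 overlaps that of Cdc20, and the sources used here do not say whether counting used strand, so reads from the shared end may belong to either gene.

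Elovl3 (chromosome 19, 46131897 to 46135694), an elongase of saturated and monounsaturated chains best known from brown fat and skin, was close to absent before differentiation. It had 1 count in all 3 WT libraries together at day 0 and 28.21, 28.07 and 25.82 CPM at day 6, which makes a ratio of 2050 (exact 95% interval 367 to 81100, for counting error only). It had no count in MIGA2-KO at day 0, and at day 6 it was at 1.304 CPM in the library labelled MIGA2-KO day 6 replicate 1 and at 0 in the other libraries. The 3 libraries of MIGA2-GFP were at 21.86, 20.61 and 21.8 CPM. The high level at day 6 was thus seen in WT and MIGA2-GFP and in no MIGA2-KO library. Elovl3 was lower in MIGA2-KO than in WT at day 6 (log2 fold change -5.97 ± 0.57, edgeR adjusted p = 2.85e-06). The change over time in MIGA2-KO passed in edgeR (adjusted p = 0.0426) on 15 counts, all from that 1 library, at least 5.39-fold above a floor of 3 counts over the day 0 group. Without that library both groups were at 0 and the call was lost. MIGA2-GFP was not called against WT (-0.35 ± 0.37, edgeR adjusted p = 0.473), but its libraries were all below WT. The difference passed without the 3 libraries that stood apart (-0.34, edgeR adjusted p = 0.0221). It also passed in limma voom (-0.35, adjusted p = 0.00493) and in a fit of only the groups compared (-0.36, edgeR adjusted p = 0.0332).

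Elovl5 (chromosome 9, 77917364 to 77984519), which extends polyunsaturated chains, was at 45.69, 56.1 and 61.72 CPM in WT at day 0 and at 165.5, 142.3 and 132.2 CPM at day 6. In MIGA2-KO it was at 69.58, 71.65 and 68.77 CPM at day 0 and at 95.72, 68.72 and 65.58 CPM at day 6. The MIGA2-GFP libraries, at 159.7, 164.1 and 148.8 CPM, overlapped WT. Elovl5 rose 2.69-fold in WT cells (log2 1.43 ± 0.15, edgeR adjusted p = 7.36e-07) and did not pass in MIGA2-KO (0.13 ± 0.15, edgeR adjusted p = 0.501, and -0.06 after leaving out the library labelled MIGA2-KO day 6 replicate 1). It was 1.91-fold lower in MIGA2-KO than in WT at day 6 (edgeR adjusted p = 8.82e-05). Other differences missed the threshold and passed without the 3 libraries that stood apart: that between the lines at day 0 (0.36, then 0.25 with an edgeR adjusted p of 0.00439) and that of MIGA2-GFP from WT (0.10, then 0.19 with an edgeR adjusted p of 0.0166). The day 0 difference also passed in DESeq2 (0.38, adjusted p = 0.0406) and in limma voom (0.31, adjusted p = 0.00158). With GC and length offsets it was 0.47 (edgeR adjusted p = 0.0037).

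Elovl6 (chromosome 3, 129532355 to 129638495), which lengthens palmitate to stearate and so feeds Scd1, went the other way. It was at 24.95, 24.73 and 28.13 CPM in WT at day 0 and at 10.94, 8.967 and 8.833 CPM at day 6. It was at 29.77, 31.66 and 30.74 CPM in MIGA2-KO at day 0 and at 21.74, 19.61 and 20.9 CPM at day 6, and at 7.088, 7.557 and 10.28 CPM in MIGA2-GFP. MIGA2-KO at day 6 thus sat between the day 0 and the WT day 6 libraries without overlap. Elovl6 fell 2.70-fold in WT cells (log2 fold change -1.43 ± 0.14, edgeR adjusted p = 4.61e-07) and 1.48-fold in MIGA2-KO cells (-0.57 ± 0.13, edgeR adjusted p = 0.00326). At day 6 it was 2.16-fold higher in MIGA2-KO than in WT (edgeR adjusted p = 1.71e-05), while MIGA2-GFP did not differ beyond the threshold (-0.21 ± 0.15, edgeR adjusted p = 0.282).

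Hacd2, on chromosome 16 (35022428 to 35109177), was at 67.76, 59.86 and 66.4 CPM in WT at day 0 and at 1233, 1257 and 1249 CPM at day 6. In MIGA2-KO it was at 71.42, 75.16 and 71.45 CPM at day 0 and at 378.4, 329.1 and 339.6 CPM at day 6. In MIGA2-GFP it was at 1017, 1021 and 1025 CPM. The 3 day 6 groups did not overlap each other. Hacd2 rose 19.3-fold in WT cells (log2 4.27 ± 0.097, edgeR adjusted p = 1.2e-13) and 4.80-fold in MIGA2-KO cells (2.26 ± 0.089, edgeR adjusted p = 8.79e-11). At day 6 it was 3.57-fold lower in MIGA2-KO than in WT (edgeR adjusted p = 4.71e-09), and 1.22-fold lower in MIGA2-GFP (edgeR adjusted p = 0.0175). With library totals in place of TMM factors the MIGA2-GFP difference was -0.11 and did not pass (edgeR adjusted p = 0.344). Unlike Scd1, Hacd2 was little different in the library labelled MIGA2-KO day 6 replicate 1, at 1.13 times the mean of the other libraries.

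The Fads genes form a second cluster on chromosome 19, with Fads3 at 10041569 to 10060110, Fads2 at 10062765 to 10101746 and Fads1 at 10182888 to 10196877. In WT over time they did not move together, while all 3 were higher in MIGA2-KO than in WT at day 0 and in MIGA2-GFP than in WT at day 6. Fads1 was at 237.7, 253.4 and 264.5 CPM in WT at day 0 and at 259, 243.4 and 255.1 CPM at day 6. In MIGA2-KO it was at 334.8, 341.3 and 343.8 CPM at day 0 and at 313.6, 228.1 and 235.7 CPM at day 6, and in MIGA2-GFP at 418.8, 438.9 and 436.9 CPM. Its WT days overlapped, with a log2 fold change of 0.00 ± 0.11 (edgeR adjusted p = 0.979) that became -0.39 (adjusted p = 0.0109) with library totals in place of TMM factors. Fads1 was higher in MIGA2-KO than in WT at day 0 (0.43 ± 0.11, edgeR adjusted p = 0.00806; 0.31 and 0.0627 with library totals), fell in MIGA2-KO over time (-0.39 ± 0.11, edgeR adjusted p = 0.00919) and was 1.71-fold higher in MIGA2-GFP than in WT (edgeR adjusted p = 0.000179). The fall in MIGA2-KO missed the threshold without replicate 2 or without replicate 3 of that group at day 6 (edgeR adjusted p = 0.0522 and 0.0503).

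Fads2, whose product acts before and after that of Fads1, was at 69.89, 116.6 and 103.4 CPM in WT at day 0 and at 49.55, 34.11 and 38.15 CPM at day 6. It was at 195.7, 193.3 and 202.3 CPM in MIGA2-KO at day 0 and at 110.2, 118.4 and 122.4 CPM at day 6. MIGA2-GFP stood at 107.2, 105.5 and 104.1 CPM. WT at day 6 was the lowest group, and both perturbed groups lay above it with no overlap. Fads2 fell 2.38-fold in WT cells (edgeR adjusted p = 9.4e-06) and 1.68-fold in MIGA2-KO cells (edgeR adjusted p = 0.00144). It was higher in MIGA2-KO than in WT at day 0 (log2 1.03 ± 0.16, edgeR adjusted p = 0.000332) and at day 6 (1.53 ± 0.17, edgeR adjusted p = 3.67e-06). It was also higher in MIGA2-GFP than in WT (1.38 ± 0.17, edgeR adjusted p = 5.6e-05).

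Fads3 was at 140.4, 139.1 and 135 CPM in WT at day 0 and at 214.6, 219.2 and 259.1 CPM at day 6. It was at 193.5, 196.1 and 200.7 CPM in MIGA2-KO at day 0, at 267.9, 221.3 and 210.8 CPM at day 6 and at 335.4, 326.1 and 344.7 CPM in MIGA2-GFP. The 2 lines overlapped at day 6 and were apart at day 0. Fads3 rose 1.67-fold in WT cells (log2 0.74 ± 0.10, edgeR adjusted p = 1.56e-05), while in MIGA2-KO the change missed the threshold (0.25 ± 0.10, edgeR adjusted p = 0.0639). That change passed in DESeq2 (adjusted p = 0.045), in limma voom (0.014), with GC and length offsets (0.0228), without the 3 libraries that stood apart (0.16, adjusted p = 0.0331) and without MIGA2-KO day 6 replicate 3 (0.0409). It was higher in MIGA2-KO than in WT at day 0 (0.51 ± 0.10, edgeR adjusted p = 0.00193) and in MIGA2-GFP than in WT at day 6 (0.54 ± 0.10, edgeR adjusted p = 0.0013).

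In WT the ratio of Fads2 to Fads1 counts came to 0.294, 0.46 and 0.391 on day 0 and to 0.191, 0.14 and 0.15 on day 6. It was 0.584, 0.566 and 0.589 in MIGA2-KO at day 0, 0.351, 0.519 and 0.519 at day 6 and 0.256, 0.24 and 0.238 in MIGA2-GFP. The groups did not overlap in any of the 6 comparisons, each with the smallest exact two-sided permutation p the design allows (0.1, and 0.1 adjusted over the 6). The largest difference was 1.52 on the log2 scale, between MIGA2-KO and WT at day 6. The shift over time in MIGA2-KO, -0.35, was -0.16 after leaving out the library labelled MIGA2-KO day 6 replicate 1.

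**Figure D2:**
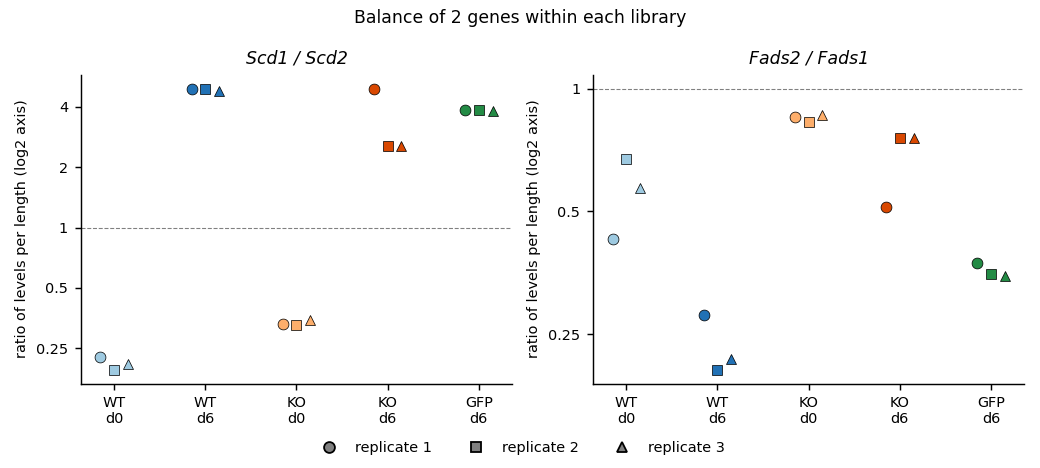
Ratio of levels per exon length of Scd1 to Scd2 (left) and of Fads2 to Fads1 (right) in each library by group, on log2 axes, with the dashed line at equal levels. All day 0 libraries lie below the line for Scd1 to Scd2 and all day 6 libraries above it, and all libraries lie below it for Fads2 to Fads1.

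Counted together, 7 of the 10 genes rose and 2 fell in WT cells between the days. Of all genes tested, 64.8% were called in that comparison, 31.7% higher and 33.1% lower. The members' median log2 fold change was 1.85, against -0.04 over all genes tested. In MIGA2-KO cells 3 were called higher and 3 lower, against 44.3% of all genes, with a median of 0.22 (background 23.3% higher and 21.0% lower). The median was -0.03, with 2 higher and 3 lower, after leaving out the library labelled MIGA2-KO day 6 replicate 1, and -0.02, with 3 higher and 4 lower, without the 3 libraries that stood apart, so its sign rested on that 1 library. Scd1 and Hacd2 rose and Elovl6, Fads1 and Fads2 fell; the sixth call, Elovl3, rested on 1 library.

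At day 0, 3 genes (Fads1, Fads2 and Fads3) were higher in MIGA2-KO than in WT and none was lower, against a background of 33.9% of genes called (16.1% higher and 17.7% lower). Without the 3 libraries that stood apart 7 were higher and none lower, but 49.6% of all genes were then called. Besides Scd1 and Elovl5, the added calls were Scd2 (0.43 with all libraries, 0.29 and an edgeR adjusted p of 8.22e-05 without the 3) and Hacd2 (0.17, then 0.21 with an adjusted p of 0.00617). Scd2 also passed in limma voom (0.33, adjusted p = 0.0125). Hacd2 did so in limma voom (0.26, adjusted p = 0.0011) and in DESeq2 (0.19, adjusted p = 0.0475). No gene of the 10 was lower at an unadjusted p under 0.05 in edgeR. With 9 other settings the number called ranged from 2 (library totals, 35.3% of all genes called) to 8 (limma voom with quality weights, 54.9%). At day 6, 6 were lower in MIGA2-KO than in WT (Scd1, Scd2, Elovl1, Elovl3, Elovl5 and Hacd2) and 2 were higher (Elovl6 and Fads2), against a background of 60.7% (29.2% higher and 31.5% lower). The median of the members was -1.35 and that of all genes -0.01. The counts were again 6 and 2 after leaving out the library labelled MIGA2-KO day 6 replicate 1. The adipocyte marker sum was lower in the same libraries.

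In MIGA2-GFP at day 6, 3 genes were higher than in WT (Fads1, Fads2 and Fads3) and 2 were lower (Elovl1 and Hacd2), against a background of 35.3% (16.5% higher and 18.9% lower). Without the 3 libraries that stood apart the counts were 6 and 3, with 61.5% of all genes called. Of the 8 adipocyte markers 4 were lower in MIGA2-GFP than in WT and none was higher, with a median log2 fold change of -0.82. Set against MIGA2-KO, MIGA2-GFP was higher for 8 genes and lower for Elovl6, against a background of 47.9% (25.4% higher and 22.5% lower), while Fads2 did not pass (-0.15 ± 0.16, edgeR adjusted p = 0.468). Fads2 passed as lower without the 3 libraries that stood apart (-0.21, adjusted p = 0.0085, when 66.6% of all genes were called), in limma voom (-0.18, 0.00924) and in a fit of only the groups compared (-0.18, 0.0356). Comparisons with WT at day 6 share those libraries, so the day 6 values of the MIGA2-KO and MIGA2-GFP groups against WT are not independent of each other.

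Libraries of the groups compared did not overlap for 9 of the 10 genes in WT over time, against 57.5% of all genes tested, and for 7 in MIGA2-KO over time, against 65.7%. They did not overlap for 8 genes between the lines at day 0 (51.0% of all genes) and for 8 at day 6 (61.9%), for 8 between MIGA2-GFP and WT (50.3%) and for all 10 between MIGA2-GFP and MIGA2-KO (69.1%). Library totals in place of TMM factors moved the median of all genes to -0.43 in WT over time, -0.15 between the lines at day 0, 0.24 between them at day 6, 0.18 for MIGA2-GFP against WT and 0.39 for the difference of the changes over time. The share of higher genes among all called ones went with it, from 48.9 to 29.6%, 47.6 to 28.1%, 48.1 to 63.6%, 46.6 to 69.6% and 50.1 to 82.6%. Values of the 10 genes are therefore relative to the median gene.

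**Figure D3:**
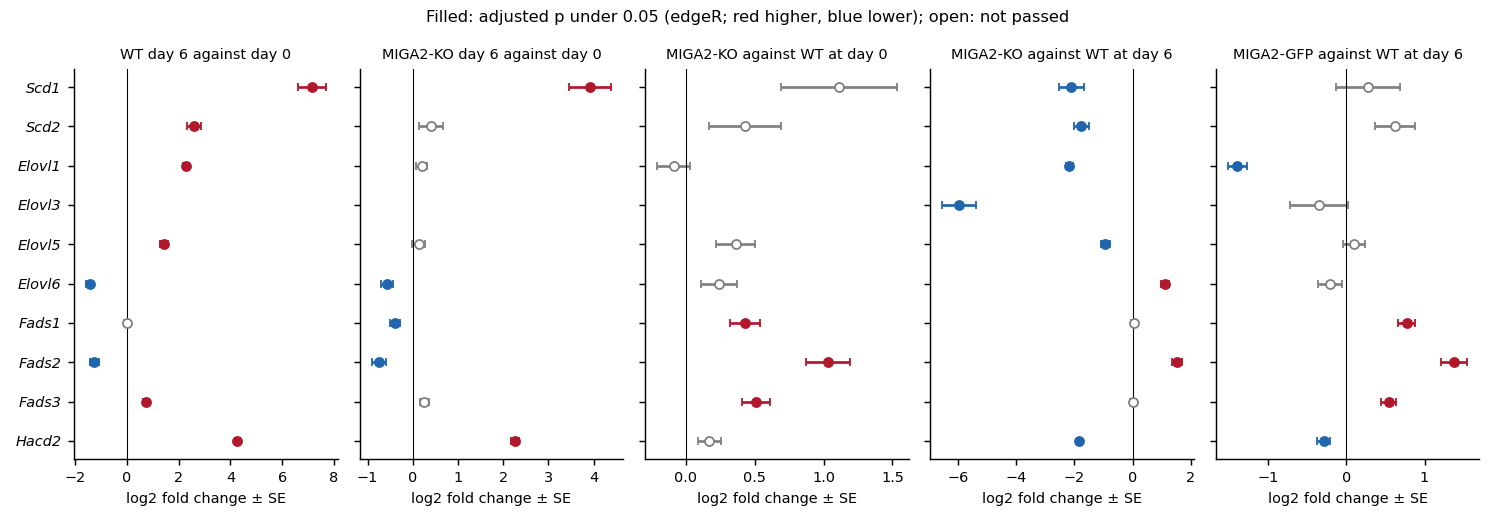
Log2 fold change (x axis, ± SE from edgeR) of each gene in 5 comparisons, with filled points for an adjusted p under 0.05 and open points otherwise. Elovl3 is left out of the first 3 panels because a group there had at most 1 count, and the panels have separate scales.

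The change over time was then compared between the lines in 1 model. It was smaller or more negative in MIGA2-KO than in WT for Scd1 (difference of log2 fold changes -3.22 ± 0.60, edgeR adjusted p = 0.00126), Scd2 (-2.19 ± 0.37), Elovl1 (-2.08 ± 0.17), Elovl5 (-1.30 ± 0.21), Hacd2 (-2.0 ± 0.12) and Fads3 (-0.50 ± 0.14). It was less negative for Elovl6 (0.87 ± 0.19, edgeR adjusted p = 0.00427). These 7 genes compare with 27.2% of all genes called (13.7% higher and 13.6% lower). Fads1 (-0.40 ± 0.15, edgeR adjusted p = 0.07) and Fads2 (0.50 ± 0.23, edgeR adjusted p = 0.117) did not pass in the main fit. Both passed without the 3 libraries that stood apart (-0.48 and 0.91), when 61.7% of all genes were called. Fads1 also passed in DESeq2 (-0.42, adjusted p = 0.0243) and in limma voom (-0.49, adjusted p = 0.000103). Fads2 also passed in limma voom (0.92, adjusted p = 1.15e-06) and with library totals (0.87, edgeR adjusted p = 0.0147). The Fads3 call was lost with library totals in place of TMM factors (-0.12, edgeR adjusted p = 0.541) and with no filter on low counts (-0.47, 0.0516). It was also lost without WT day 6 replicate 3, MIGA2-KO day 0 replicate 3, or MIGA2-KO day 6 replicate 2 or 3 (edgeR adjusted p = 0.0559, 0.0531, 0.0566 and 0.065). The difference for Elovl3 could not be estimated, since it was nearly absent from both lines at day 0.

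Levels of different genes are compared per exon length, as CPM per kb. Scd2 led in both day 0 groups, at 155 CPM per kb in WT and 209 in MIGA2-KO, followed by Fads1 at 52.3 and 70.6. In MIGA2-KO at day 0 Fads1 overlapped Scd1, which was at 69.9. In WT at day 0 Fads3, Elovl1, Scd1 and Fads2 followed at 36.4, 34.9, 32.5 and 29.3 CPM per kb, and each overlapped the next. Scd1 led in all 3 day 6 groups, at 4570 CPM per kb in WT, 1060 in MIGA2-KO and 5520 in MIGA2-GFP, then Scd2 and Hacd2 in the same order without overlap. Elovl6 and Elovl3 were the lowest of the 10 in MIGA2-KO at day 6, and Elovl6 was the lowest in WT and MIGA2-GFP. Elovl3 and Fads2 overlapped in WT at day 6, at 13.9 and 12.3 CPM per kb.

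As a share of the sum over the 10 genes, Scd1 took 8.26 to 9.06% in WT at day 0 and 73.1 to 74.9% at day 6. It took 12.8 to 13.3% in MIGA2-KO at day 0, 50.3 to 73.5% at day 6 and 72.9 to 73.2% in MIGA2-GFP. Among all counted genes Scd1 ranked between 1111 and 1706 in the WT day 0 libraries by CPM per kb, between 8 and 11 in WT at day 6, between 9 and 75 in MIGA2-KO at day 6 and at 6 or 7 in MIGA2-GFP. The sum itself lay between 334.4 and 406.2 CPM per kb in WT at day 0 and 5852 and 6657 at day 6. The MIGA2-KO libraries had sums of 532 to 543.9 on day 0 and 953 to 3000 on day 6. MIGA2-GFP had the highest sums of the series, 7537 to 7622.

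**Figure D4:**
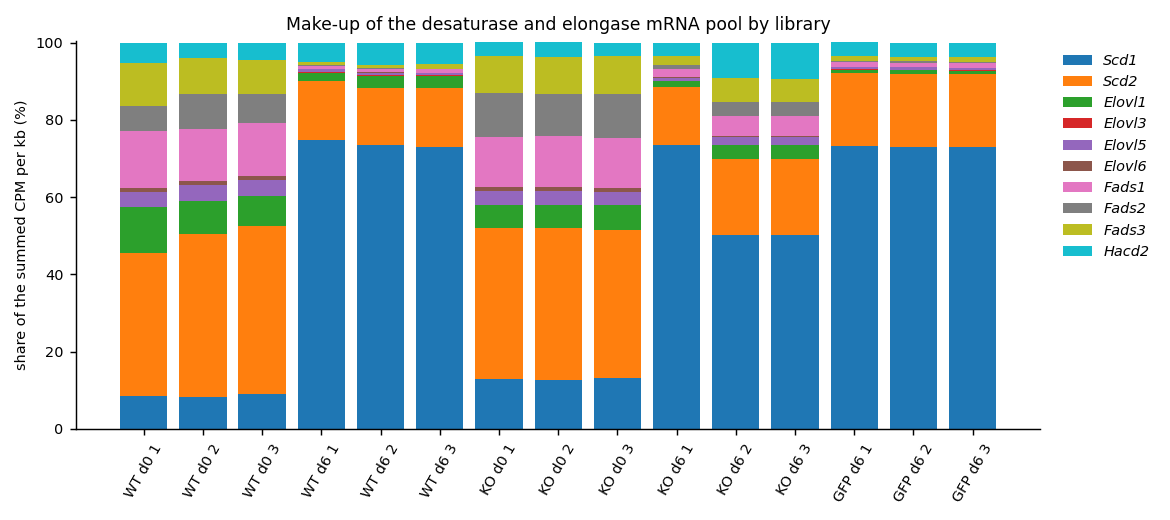
Share of each gene in the summed CPM per kb of the 10 genes (y axis, percent) for each library (x axis, group and replicate number). The 3 WT and 3 MIGA2-GFP libraries at day 6 and the library labelled MIGA2-KO day 6 replicate 1 are 72.9 to 74.9% Scd1, and the other MIGA2-KO day 6 libraries are 50.3% Scd1.

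The library labelled MIGA2-KO day 6 replicate 1 was higher than the other MIGA2-KO libraries of that day in many genes, stearoyl-CoA desaturases and adipocyte markers among them. Ranked by its log2 difference from them among all 12279 genes, Scd3 came 8 from the top, Miga2 20, Elovl3 31, Scd1 124 and Scd2 391. The other members were at ranks 1338 to 7908, from Elovl5 to Fads2, and Fads2 was lower there. Scd3, a desaturase of the same cluster, had 29.13 CPM in that library and 0.7415 and 1.306 CPM in the other libraries, against 51.27, 43.96 and 46.88 in WT at day 6. Slc2a4, the insulin-regulated glucose transporter, was at 95.03 CPM there and at 17.14 and 15.94 CPM in the other libraries, and the adipokine Retn at 71.47 against 21.09 and 19.68 CPM. The excess was smaller for other adipocyte markers. Adipoq, Fabp4, Plin1 and Cidec were at 1.36, 1.59, 2.09 and 1.8 times the mean of the other libraries. The sum of adipocyte markers in that library was 9425 CPM, against 6010 and 5860, and the sum of preadipocyte and fibroblast markers was 10890, against 18690 and 17660.

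The counts for the gene lists that follow are to be read against the shares of all genes called, 64.8% in WT over time, 44.3% in MIGA2-KO over time, 60.7% between MIGA2-KO and WT at day 6 and 35.3% between MIGA2-GFP and WT. Of 14 other enzymes of desaturation and of the elongation cycle, 11 passed the filter, and 9 of them rose and 2 fell in WT cells. Elovl2, Elovl7 and Fads6 did not pass it and stayed under 1 CPM. Elovl4, an elongase of very long chains, was at 1.933, 3.625 and 3.521 CPM in WT at day 0 and at 50.82, 49.61 and 46.4 CPM at day 6. In MIGA2-KO it was at 4.173, 3.211 and 3.244 CPM at day 0 and at 1.913, 0.8239 and 1.655 CPM at day 6. It rose in WT (log2 4.00 ± 0.23, edgeR adjusted p = 1.11e-09) and fell in MIGA2-KO (-1.28 ± 0.29, edgeR adjusted p = 0.00228), and its log2 fold change between MIGA2-KO and WT at day 6 was -5.06 ± 0.26. Hsd17b12, the ketoreductase of the cycle, rose by 1.80 ± 0.14 in WT and was at 0.02 ± 0.14 in MIGA2-KO. Hacd4, a dehydratase like Hacd2, fell by 2.73 in WT (log2 fold change -2.73, edgeR adjusted p = 2.1e-08) and was higher in MIGA2-KO than in WT at day 6 (1.82 ± 0.20, edgeR adjusted p = 4.63e-06). Cyb5b, a cytochrome b5, was lower there (-1.42 ± 0.083, edgeR adjusted p = 1.39e-08). Cyb5a, another cytochrome b5, was at 696 ± 88.3 CPM in WT and 474.1 ± 19.8 in MIGA2-KO at day 6 (SD, n = 3). Which cytochrome b5 serves the desaturases in these cells was not tested. In all, 9 of these 11 were lower and 1 higher in MIGA2-KO at day 6, and none was higher and 5 were lower in MIGA2-GFP than in WT.

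Palmitate is a substrate of Elovl6 and Scd1, and the list for fatty acid synthesis up to palmitate holds regulators besides enzymes. All 12 genes of that list were lower in MIGA2-KO than in WT at day 6. Their median log2 fold change was -1.14. In WT cells 11 of them rose and none fell. Fasn, the fatty acid synthase, was at 196.9 ± 26.6 CPM in WT at day 0 and 1693 ± 276 at day 6 (SD, n = 3), against 322.3 ± 12.2 and 401.7 ± 22.3 in MIGA2-KO. Thrsp, a lipogenic regulator, was at 1039 ± 253 CPM in WT, 37.95 ± 31.0 in MIGA2-KO and 431.4 ± 4.85 in MIGA2-GFP at day 6. G6pdx and Pgd, which supply NADPH, were lower in MIGA2-KO by log2 fold changes of -1.01 and -1.18 (edgeR adjusted p = 3.5e-06 and 8.1e-07). MIGA2-GFP had lower levels than WT for 7 of the 12 and a higher level for 1. Elovl6 therefore moved opposite to the called genes of this list in WT and in MIGA2-KO against WT.

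Of 19 tested transcriptional regulators of these enzymes, 9 were lower and 2 higher in MIGA2-KO than in WT at day 6, a share near the 60.7% of all genes, and 11 rose and 5 fell in WT cells over time. The 2 that were higher were Rxra (0.68 ± 0.14, edgeR adjusted p = 0.000884) and Sp1 (0.98 ± 0.21, edgeR adjusted p = 0.000939). Srebf1, whose product drives many lipogenic genes including Scd1 and Elovl6, was at 31.26, 35.44 and 24.81 CPM in WT at day 0 and at 160.4, 190.7 and 290.7 CPM at day 6. In MIGA2-KO at day 6 it was at 126.7, 146.3 and 134.2 CPM, and it was lower than in WT (-0.66 ± 0.18, edgeR adjusted p = 0.00559). Nr1h3, the liver X receptor alpha, was lower in MIGA2-KO by a log2 fold change of -1.76 ± 0.17 and Pparg, the master regulator of adipogenesis, by -0.90 ± 0.082. Insig2, which retains SREBP precursors, was lower as well (-1.41 ± 0.13). In MIGA2-GFP 1 regulator was higher and 3 were lower than in WT, Pparg among the latter (-0.64 ± 0.081, edgeR adjusted p = 7.82e-05).

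Of 17 tested sterol-regulated genes of cholesterol synthesis and uptake, 14 fell and none rose in MIGA2-KO over time, while 8 rose and 1 fell in WT. Nsdhl rose by 1.05 ± 0.095 in WT and fell in MIGA2-KO (-1.22 ± 0.097 on the log2 scale). Lss was at 0.47 ± 0.12 and -1.51 ± 0.12 in the same comparisons, and both changes passed. At day 6, 13 of the 17 were lower and none was higher in MIGA2-KO than in WT, with Pmvk at -3.03 ± 0.22 and Dhcr7 at -1.32 ± 0.11. Without the 3 libraries that stood apart 14 were lower and 2 higher in that comparison, and 12 rose and 4 fell in WT over time, when 73.6% and 80.1% of all genes were called.

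Enzymes that pass long acyl chains on were measured as well. Of 11 tested genes on a list of acyl-CoA synthetases, thioesterases and binding proteins, 6 were lower and 3 higher in MIGA2-KO than in WT at day 6. The genes named next, picked by smallest adjusted p over the 7 comparisons, were all lower and leave out the 3 higher ones. Acsl1, the main synthetase of fat cells, was at 2948 ± 549 CPM in WT and 389.5 ± 141 in MIGA2-KO (SD, n = 3). Dbi, an acyl-CoA binding protein, was lower by a log2 fold change of -2.68 ± 0.23, and the fatty acid transport proteins Slc27a1 and Slc27a4 by -1.42 ± 0.17 and -1.33 ± 0.17. Of 13 genes for peroxisomal shortening of polyunsaturated chains or their entry into phospholipids, 8 were lower and 1 higher. Among them Lpcat3, which places polyunsaturated chains in phospholipids, was at -1.74 ± 0.13 and Scp2, a peroxisomal thiolase and lipid carrier, at -1.29 ± 0.097. The peroxisomal transporters Abcd2 and Abcd3 were at -1.07 ± 0.14 and -0.36 ± 0.081. The 9 genes of eicosanoid synthesis, which uses the products of Fads1 and Fads2, included 4 that were higher and 3 that were lower. Ptgs1 (1.03 ± 0.087), Ptges (0.67 ± 0.13) and the phospholipase Pla2g4a (0.80 ± 0.16) were higher in MIGA2-KO than in WT at day 6, and Ptges2 was lower (-1.04 ± 0.18).

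The genes whose group means ran most like those of each member were taken as the 3 with the smallest root-mean-square difference of centred log2 values over the 5 groups, among 12257 candidates. For Scd1 they were Pygl (0.32), Tmem182 (0.36) and Gpt (0.39), and for Scd2 Mst1r (0.13), Atp10d (0.20) and Cd300lg (0.21). For Elovl3 they were Cyp2b10 (0.35), Pck1 (0.45) and Aldh1l1 (0.6), and for Hacd2 Acadm (0.14), Enpp2 (0.15) and Retsat (0.19). Frat1 (0.074) ran closest to Elovl1, 9930017N22Rik (0.032) to Elovl5, Bbs7 (0.063) to Elovl6, Copb1 (0.029) to Fads1, Gm43365 (0.12) to Fads2 and Ncapg2 (0.059) to Fads3. Among the 10 members themselves the closest pair was Fads1 and Fads3 (0.31), and the farthest was Elovl3 and Elovl6 (4.2). These are descriptions over 5 group means.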

How the data were processed

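RNA of 15 libraries of 3T3-L1 cells in 5 groups of 3 was measured as whole-number counts per gene. Per the submitters' processing notes, the authors made these counts with bcl2fastq 2.19, Trimmomatic, STAR 2.5.4b and featureCounts on GRCm38.p5, and also name edgeR; the counts are used as deposited. Of 25700 identifiers 25664 matched a symbol in GENCODE vM21.

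Differences were tested with edgeR 4.0.16 (quasi-likelihood, TMM factors, 1 fit over all 15 libraries, filterByExpr with 10 counts per library and 15 in total, Benjamini-Hochberg adjustment over 12279 genes, threshold 0.05) in 7 comparisons. SE is that of the log2 fold change. Balances were tested with exact permutation tests over libraries. Levels between genes are CPM per kb of exon. Named genes are the 10 members, Miga2, up to 4 tested genes of each list with the smallest adjusted p over the 7 comparisons, and for each member the 3 genes of most similar pattern, of which the text gives 1 to 3. Scd3, Cdc20 and Cyb5a were named in addition, after their values were seen. So were the 2 regulators that were higher in MIGA2-KO and the 3 list genes that were not tested. Single cell type markers were named from the marker lists without a fixed rule. The fit was also run on counts simulated from its own estimates of spread, with few genes changed. That run does not vouch for the fit on these data. The members and lists were chosen with earlier results of these data known. Alternatives were DESeq2 1.42.0, limma 3.58.1 voom, other scalings, no filter, GC and length offsets, fewer groups, a replicate block and libraries left out.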

Additional observations from a re-analysis of the deposited data

Results flagged for a closer look

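For 7 of the 10 genes the change between day 0 and day 6 differed between the MIGA2-KO and WT lines by the test of the difference itself (edgeR quasi-likelihood, Benjamini-Hochberg adjustment), against 27.2% of all genes. The difference of log2 fold changes, MIGA2-KO minus WT, was -3.22 for Scd1, -2.19 for Scd2, -2.08 for Elovl1, -1.30 for Elovl5, 0.87 for Elovl6, -0.50 for Fads3 and -2.0 for Hacd2. The Fads3 difference missed the threshold with library totals (adjusted p = 0.541), with no filter (0.0516) and with any of 4 libraries left out (0.0531 to 0.065). Scd1 was at -4.35 after leaving out the library labelled MIGA2-KO day 6 replicate 1. Summed adipocyte markers at day 6 lay between 5860 and 9425 CPM in MIGA2-KO and between 30660 and 44740 CPM in WT, and their part in these differences was not tested.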

How the results depend on the processing

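Of the results for single genes, with 1 library left out at a time 455 kept direction and call, 10 reversed, 5 gained a call and 10 lost one. With the other settings 563 did, 19 reversed, 39 gained and 7 lost one, and the cause was not tested. A result that reversed was counted only as reversed. Among those, Fads1 in WT over time (library totals) and Scd2 in MIGA2-KO over time (without the 3 libraries that stood apart) also gained a call. So did Elovl1 at day 0 (GC and length offsets). In WT over time Fads1 was at -0.39 (library totals), -0.02 (no filter), -0.04 (voom), -0.08 (GC and length), -0.04 (without the 3 libraries that stood apart), -0.00 (only the groups compared) and -0.04 to 0.03 with 1 library left out. In MIGA2-KO over time Scd2 was at -0.08 (voom), -0.12 (without the 3) and -0.15 to 0.62, and Elovl5 at -0.04 (voom), -0.02 (GC and length), -0.03 (without the 3) and -0.06 to 0.23. At day 0 Elovl1 was at 0.22 (GC and length), 0.00 (without the 3) and -0.16 to 0.00, and Elovl3, near 0 counts, at 0.03 (DESeq2) and 1.10 (voom). Between the lines at day 6 Fads1 was at -0.07 (voom), -0.09 (without the 3) and -0.11 to 0.13, and Fads3 at -0.08, -0.13 and -0.09 to 0.11, and at 0.27 with library totals (edgeR adjusted p = 0.0343).

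Voom called 8212 genes in MIGA2-KO over time (5442 in edgeR), 6742 at day 0 (4159), 7174 for MIGA2-GFP against WT (4338), 8950 for MIGA2-GFP against MIGA2-KO (5886) and 7611 for the difference of changes (3346). Without the 3 libraries 7625 and 7655 were called for MIGA2-GFP against WT and the difference of changes. With 1 library left out these counts were 2759 (without WT day 6 replicate 2) to 5419 (without WT day 6 replicate 1), and 2541 (without MIGA2-KO day 6 replicate 3) to 5186 (without WT day 0 replicate 1). Members called at day 0 were 5 in DESeq2, 8 in voom, 5 with GC and length offsets and 7 without the 3 libraries, against 3, and 9 without them for MIGA2-GFP against WT, against 5.

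Same-numbered libraries deviated with correlations of -0.723 to 0.125 over 30 pairs. The 3 pairs of WT at day 0 and day 6 were at -0.723, -0.363 and -0.524, and the other 27 between -0.124 and 0.125. Same-numbered WT libraries of day 0 and day 6 thus deviated in opposite directions, and why was not tested. The labels do not say that replicate numbers mark a shared culture, so libraries were not paired. With the replicate block Elovl3 in MIGA2-KO over time was at 5.61 (edgeR adjusted p = 0.0643). Depth of 10748668 counts and more limits only Elovl3 among the members.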
